A study of Mus musculus with 8 samples.

Results

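The nuclear genes for the subunits of respiratory complex I were taken as every gene whose symbol begins with *Ndufa*, *Ndufb*, *Ndufc*, *Ndufs*, or *Ndufv* followed by a digit and that had any count, which gave 38 of the 16994 genes in the table. The rule leaves out the *Ndufaf* assembly factors and the acyl carrier subunit *Ndufab1*. Of the 38 members, 37 passed a mean of at least 1 CPM (counts per 1000000 library counts) over the libraries, the filter used for tests, and *Ndufa4* did not. RNA was sequenced from hearts of male WT mice and of mice with whole-body knockout of TIGAR (TKO), a phosphatase of glycolytic control. The strain C57BL/6N-Tigar tm1a(EUCOMM)Wtsi/Wtsi gave rise to the floxed *Tigar* mice of the same study, and how the whole-body knockout was made is not given in the sources used here. Infarct, border, and remote zones came from hearts whose left anterior descending coronary artery was permanently ligated at 16 weeks of age, and left ventricle was the fourth tissue. The time from ligation to tissue collection is not given in the sources used here. Each genotype and region is 1 library, 8 in all, with 27429240 to 33799249 estimated counts. The infarct zone libraries each pooled RNA of 3 mice; the number of mice in the other libraries, and whether left ventricles were sham operated or regions shared hearts, is not given in the sources used here.

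Complex I, NADH:ubiquinone oxidoreductase, is the largest enzyme of the respiratory chain. It takes electrons from NADH in a peripheral arm that reaches into the matrix, passes them over a flavin and iron-sulfur clusters to ubiquinone, and pumps protons through a membrane arm. The catalytic core is built from nuclear genes for the peripheral arm and from mitochondrial DNA genes for the membrane arm, and the accessory subunits around it are all nuclear. Cardiomyocytes are packed with mitochondria, and these transcripts are abundant in heart.

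By symbol and role, the members fell into 4 places in the enzyme. The NADH-oxidising module held 8 (*Ndufv1*, *Ndufv2*, *Ndufv3*, *Ndufs1*, *Ndufs4*, *Ndufs6*, *Ndufa2*, *Ndufa12*), the ubiquinone-binding module 8 (among them *Ndufs3*, *Ndufs7*, *Ndufs8*, *Ndufa5*, *Ndufa6*, *Ndufa7*, *Ndufa9*), the proximal membrane arm 9 (*Ndufa1*, *Ndufa3*, *Ndufa8*, *Ndufa10*, *Ndufa11*, *Ndufa13*, *Ndufc1*, *Ndufc2*, *Ndufs5*), and the distal membrane arm 10 (*Ndufb2* to *Ndufb11*). The 7 catalytic core subunits included *Ndufv1*, *Ndufv2*, *Ndufs1*, *Ndufs3*, *Ndufs7*, and *Ndufs8*. Of the remaining members, *Ndufa4* and its paralog *Ndufa4l2* bear the name of the family, although the *Ndufa4* protein is now placed in complex IV. *Ndufb4c* is annotated as a processed pseudogene in GENCODE M21, and all 360 of its 31-base words also occur in *Ndufb4*. In all, 4 other annotated genes, *Ndufb4* among them, hold words of *Ndufb4c*, so its reads could be split among these genes. The other 37 members are annotated as protein coding, and 20 of the 38 shared under 5% of their 31-base words with any other annotated gene. *Ndufb6* shared 34.5% (with *Smim27*) and *Ndufa13* 33.2% (mostly with *Tssk6*). *Ndufb11* (29.0%), *Ndufs5* (26.5%), the core subunit *Ndufs3* (25.4%), and *Ndufa12* (20.7%) followed. The counts of members with such sharing are less certain for that reason.

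The promoters of the members were searched for motifs of factors known for respiratory genes. Nearly all members moved together between tissues, and whether such motifs bear on that movement was not tested. RefSeq windows (GRCm38.p6, 250 bases before to 50 after the start) were matched for 32 members. The members without a window included *Ndufs1*, *Ndufb9*, *Ndufa2*, *Ndufa4l2*, and *Ndufb4c*. The NRF1 motif, read on both strands like the others, was found in 7 of the 32 (21.9%) and in 4.6% of all 32851 windows, and the YY1 motif AAGATGGC also in 7 (21.9%, against 2.75%). All 7 matches to the YY1 motif began after the start of transcription, whereas 9 of 10 NRF1 matches began before it. The ETS family motif CGGAAG was in 8 members (25%, against 16.9%), the CREB motif TGACGTCA in 3 (9.38%, against 1.79%), and the ERR motif AAGGTCA in 3 (9.38%, against 4.72%). A match of letters is not a site of binding, and binding was not measured here. Bases before the start, 5′ to 3′ on the strand of the gene and with motif matches on either strand in capitals, are printed for 5 members. *Ndufa11* carried matches for CREB and NRF1, *Ndufb2* for ERR and CREB, and *Ndufs5* for ERR and NRF1, and none of these matches overlap. *Ndufs8* had the highest TKO/WT ratio among core subunits in the infarct zone, and *Ndufa9* is the member that stood apart between genotypes. Both carried an ETS family match, as did *Ndufa12*, *Ndufa7*, *Ndufb5*, *Ndufb6*, *Ndufb7*, and *Ndufs3*. *Ndufa9* also carried a YY1 match, which began after the start and so is not printed. Whether these matches bear on the ratios was not tested.
*Ndufa11*, chr17:56717512-56717761, plus strand: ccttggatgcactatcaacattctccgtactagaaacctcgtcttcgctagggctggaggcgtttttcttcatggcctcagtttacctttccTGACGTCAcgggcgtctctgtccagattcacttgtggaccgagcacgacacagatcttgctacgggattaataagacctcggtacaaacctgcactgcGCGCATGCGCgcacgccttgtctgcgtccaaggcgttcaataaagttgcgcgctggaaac
*Ndufb2*, chr6:39592315-39592564, plus strand: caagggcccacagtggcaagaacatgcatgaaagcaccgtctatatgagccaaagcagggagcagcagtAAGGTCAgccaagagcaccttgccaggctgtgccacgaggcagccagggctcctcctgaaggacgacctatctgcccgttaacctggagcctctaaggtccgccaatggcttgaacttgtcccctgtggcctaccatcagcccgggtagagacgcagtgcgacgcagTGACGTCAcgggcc
*Ndufs5*, chr4:123718203-123718436, minus strand: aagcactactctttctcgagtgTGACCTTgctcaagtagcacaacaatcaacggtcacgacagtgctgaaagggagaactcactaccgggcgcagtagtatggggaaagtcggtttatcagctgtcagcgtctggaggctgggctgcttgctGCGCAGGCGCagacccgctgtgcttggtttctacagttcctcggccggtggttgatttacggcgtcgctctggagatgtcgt
*Ndufs8*, chr19:3912775-3913024, minus strand: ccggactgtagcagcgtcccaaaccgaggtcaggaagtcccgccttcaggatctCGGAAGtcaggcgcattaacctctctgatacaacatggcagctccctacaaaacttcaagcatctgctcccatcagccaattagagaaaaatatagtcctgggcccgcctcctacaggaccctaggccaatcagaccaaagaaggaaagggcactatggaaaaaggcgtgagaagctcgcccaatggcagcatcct
*Ndufa9*, chr6:126849145-126849394, minus strand: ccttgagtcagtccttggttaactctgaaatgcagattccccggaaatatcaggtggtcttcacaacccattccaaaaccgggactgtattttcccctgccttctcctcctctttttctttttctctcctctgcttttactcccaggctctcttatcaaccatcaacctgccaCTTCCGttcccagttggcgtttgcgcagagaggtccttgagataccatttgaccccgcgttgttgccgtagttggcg
The NRF1 match of *Ndufa11* began 60 bases before the start and its CREB match 158 bases before. That of *Ndufs5* began 98 bases before the RefSeq start, which lies past the end of the printed stretch, since that stretch stops at the GENCODE start. The members do not sit in 1 cluster of the genome but on 15 chromosomes.

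In the left ventricle, level per kilobase of transcript (TMM-scaled CPM per kilobase, mean of WT and TKO) ran from 1006 for *Ndufa3*, a small accessory subunit of the membrane arm, to 0.269 for *Ndufa4*. *Ndufb9* (887) and *Ndufb8* (850) came next to *Ndufa3*. Among the core subunits, *Ndufv1* (508) and *Ndufs7* (506) lay close to each other, and *Ndufs8*, which holds a pair of iron-sulfur clusters, was lowest with 41.5. Most neighbours in this order lay closer to each other than the 2 left ventricle libraries did for the same gene. Gaps to the next member were wider than this after, among others, *Ndufa3*, *Ndufa12*, *Ndufs1*, *Ndufa10*, *Ndufb3*, *Ndufs3*, *Ndufc1*, *Ndufs4*, *Ndufs8*, *Ndufa4l2*, and *Ndufa9*, with the steps after *Ndufc1* (2.24-fold) and *Ndufs8* (2.35-fold) the widest above *Ndufa4l2*. Steps among the lowest 3 members depended on the library, since the 2 left ventricles differed 13.5-fold for *Ndufa9*. The transcript with the longest coding sequence set the length, and for *Ndufb2* (4371 bases) this lowers the level per kilobase.

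**Figure D1:**
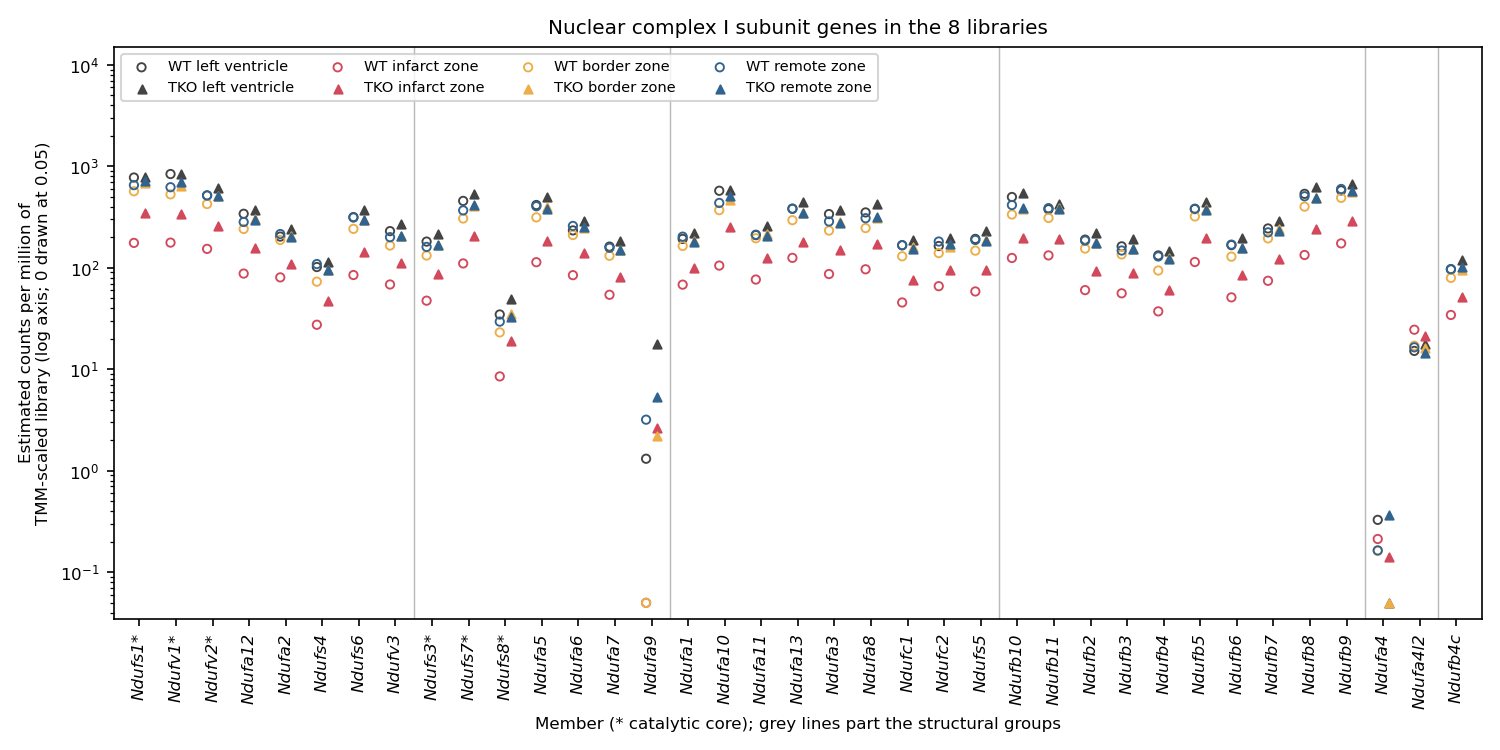
TMM-scaled CPM (log axis) of the members shown in each of the 8 libraries, with open circles for WT, filled triangles for TKO, and a colour for each region. The infarct zone symbols sit lowest for every member drawn other than *Ndufa4*, *Ndufa4l2*, and *Ndufa9*, with WT below TKO.

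The infarct zone was compared with the left ventricle to ask how far the subunit transcripts fell in scarred tissue. With genotype as a term and edgeR's quasi-likelihood test, 35 of 37 members were lower at an adjusted p under 0.05, and 1, *Ndufa4l2*, was higher. Over all 12999 genes tested, 28.6% were lower and 28.2% higher. The members' median log2 difference was -1.49 and that of all genes 0.019. The test takes the 2 genotypes as replicates and so bears on these tissues and not on mice. In these bulk samples, fewer cardiomyocytes and less RNA per cardiomyocyte cannot be told apart. DESeq2 also called 35 members lower and 1 higher (28.4% and 27% of all genes). With total counts in place of TMM factors the count of members was the same, but the median of all genes shifted to 0.71, the members' median to -0.82, and the split of all calls from 3670 higher and 3715 lower to 7869 and 1084.

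The core subunits of the NADH-oxidising module bind the flavin and the first iron-sulfur clusters of the electron path. *Ndufv1*, the flavin-binding subunit, had 840, 177, 530, and 623 TMM-scaled CPM in the WT left ventricle, infarct, border, and remote zones, and 848, 342, 642, and 696 in TKO. *Ndufs1*, the largest subunit of the peripheral arm, had 776, 176, 568, and 653 in WT and 782, 345, 681, and 718 in TKO. For both genes the left ventricles of the genotypes were nearly equal, and the infarct zones were the lowest libraries, WT lower than TKO. *Ndufv2* went from 517 to 154 in WT and from 610 to 261 in TKO between left ventricle and infarct zone, with 425 and 508 in the border zones and 516 in both remote zones. Across genotypes the log2 difference between infarct zone and left ventricle was -1.76 ± 0.25 (SE; edgeR adjusted p = 0.00199) for *Ndufv1*, -1.64 ± 0.26 for *Ndufs1*, and -1.47 ± 0.21 for *Ndufv2*.

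The ubiquinone-binding module takes the electrons on to quinone. *Ndufs7*, which holds the last cluster before quinone, had 456, 110, 306, and 368 TMM-scaled CPM in the WT left ventricle, infarct, border, and remote zones and 539, 207, 408, and 419 in TKO. In *Ndufs3* the levels were 181, 47.5, 132, and 161 in WT and 216, 87.0, 166, and 168 in TKO. TKO was above WT in each region for both genes, by least in the remote zone. *Ndufs8* was low throughout, with 34.7, 8.51, 23.1, and 29.5 in WT and 48.8, 19.1, 34.9, and 32.6 in TKO. The log2 difference of the infarct zone from the left ventricle lay between -1.70 ± 0.21 for *Ndufs7* and -1.60 ± 0.20 for *Ndufs3* (SE). All 7 core subunits were called lower, with a median of -1.66.

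All places in the enzyme were lower in the infarct zone. The NADH-oxidising module had 8 of 8 members lower (median log2 difference -1.57), the ubiquinone-binding module 7 of 8 (-1.65), the proximal membrane arm 9 of 9 (-1.49), and the distal membrane arm 10 of 10 (-1.45). Among accessory subunits, *Ndufa10* of the membrane arm fell by 1.79 on the log2 scale (SE 0.30) and *Ndufb10* by 1.71 (SE 0.20), whereas *Ndufc2* fell by 1.19 (SE 0.16) and *Ndufa2* by 1.23 (SE 0.16). *Ndufb4c* was called lower too (-1.35 ± 0.14), with the limit that its reads match *Ndufb4* (-1.55 ± 0.19). The largest adjusted p among the 35 members called lower was 0.00344, that of *Ndufa10*. The member not called was *Ndufa9* (-3.06 ± 1.19, adjusted p = 0.0671), whose counts were near 0 in WT.

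*Ndufa4l2*, a paralog known as a target of hypoxia-inducible factor that dampens complex I activity, went the other way. It had 15.2, 24.6, 17.1, and 16.5 TMM-scaled CPM in the WT left ventricle, infarct, border, and remote zones and 17.8, 21.1, 16.3, and 14.4 in TKO. The infarct zone was the highest library in both genotypes, and the other libraries overlapped. The log2 difference was 0.47 ± 0.13 (SE; edgeR adjusted p = 0.0229). The call was lost without the WT left ventricle (0.27, adjusted p = 0.0856) and without the WT infarct zone (0.38, adjusted p = 0.138). With total counts in place of TMM the *Ndufa4l2* difference was 1.15, beside a median of 0.71 over all genes.

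Within genotypes, where each ratio rests on 2 libraries and has no replicate check, 36 of 37 members were at least 2-fold lower in the infarct zone than in the left ventricle in WT and 36 of 37 in TKO. Of all genes tested, 14.9% and 7.73% were. The median ratio of the members was 0.297 in WT and 0.425 in TKO. Abundant genes, averaging 100 CPM or more, were lower too. Their median ratios ran from 0.512 to 0.598 in WT and from 0.610 to 0.836 in TKO, by class of transcript length. Among the 34 members left after *Ndufa4*, *Ndufa4l2*, *Ndufa9*, and *Ndufb4c* are set aside, ratios ran from 0.183 (*Ndufa10*) to 0.402 (*Ndufc2*) in WT and from 0.366 (*Ndufb10*) to 0.482 (*Ndufa6*) in TKO. The spread between members was thus wider in WT. For *Ndufa10* the ratio was 0.183 (95% exact interval from counting error, 0.177 to 0.189) in WT and 0.430 (0.419 to 0.441) in TKO.

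Markers of cell types moved with these falls. The 8 cardiomyocyte markers were all called lower in the infarct zone (median log2 difference -1.55), all 8 fibroblast markers higher (3.07), and all 7 leukocyte markers tested higher (1.93), while 1 of 6 endothelial markers was called lower (-0.22). None of these markers was at 0 in any library. The summed level of the cardiomyocyte markers went from 33860 TMM-scaled CPM in the WT left ventricle to 7498 in the WT infarct zone, and from 33870 to 15720 in TKO. The fibroblast sum went from 874 to 8277 in WT and from 981 to 6856 in TKO, and the leukocyte sum from 261 to 1251 and from 225 to 939. Set against the cardiomyocyte markers' own median ratio (0.237 in WT, 0.458 in TKO), the members' median was 1.26-fold that of the markers in WT and 0.928-fold in TKO. Relative to the median marker, then, the WT infarct zone held slightly more of the members than the WT left ventricle and the TKO infarct zone slightly less. The 8 markers themselves ran from 0.120 (*Myh6*) to 0.335 (*Tnnt2*) in WT. That range holds the members' median of 0.297, so the direction depends on the marker used. The 7 core subunits alone came to 1.02-fold and 0.882-fold of the markers.

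**Figure D2:**
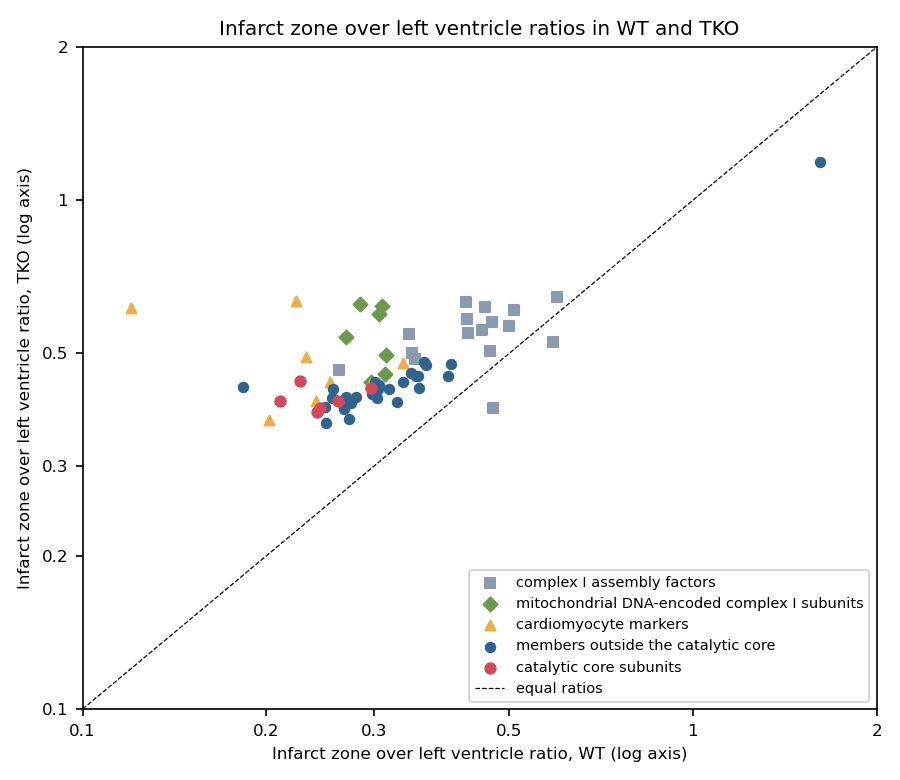
Infarct zone over left ventricle ratio in WT (x axis) against TKO (y axis), both on log axes, for members, assembly factors, mitochondrial DNA-encoded subunits, and cardiomyocyte markers, with *Ndufa4* and *Ndufa9* not drawn. The members other than *Ndufa4l2* cluster between 0.183 and 0.402 in WT and between 0.366 and 0.482 in TKO, above the line of equal ratios.

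The border and remote zones differed less. Against the left ventricle, edgeR called 0 of 37 members in the border zone (5 at an unadjusted p under 0.05, against 17.9% of all genes; DESeq2 called 0), with a median log2 difference of -0.35. Of all genes, 0.669% were called higher there and 0.0462% lower by edgeR, and 3.66% and 0.769% by DESeq2. The border zone over left ventricle ratio was below 1 for 36 of 37 members in WT (49.6% of all genes) and 37 of 37 in TKO (51.5% of all genes), with medians of 0.767 and 0.805. *Ndufv1* was lowest of the 34 in WT (0.631), and *Ndufb10* in TKO (0.704). In the remote zone edgeR called 0 members (0 at an unadjusted p under 0.05; DESeq2 called 0) and 0% of all genes in either direction, where DESeq2 called 0.977% of all genes higher and 0.269% lower. There the genotypes parted. In WT 23 of 37 ratios to the left ventricle were below 1 (47.6% of all genes), with a member median of 0.976. In TKO 37 of 37 were (52.7% of all genes), with a member median of 0.807. Short abundant genes, of up to 1000 bases and a mean of at least 100 CPM, parted too, with medians of 1.045 in WT and 0.849 in TKO. Abundant genes over 4000 bases had 0.921 and 1.055. The part of transcript length in the members' ratios was not tested.

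The effect of TIGAR loss was asked first across regions. *Tigar* itself had 1965, 1066, 2215, and 1997 estimated counts in WT and 51, 87, 79, and 87 in TKO, in the order left ventricle, infarct, border, and remote zone, and was lower in TKO (log2 difference -4.44, edgeR adjusted p = 0.006). Of the members, 0 of 37 passed (11 at an unadjusted p under 0.05, against 16.2% of all genes; smallest adjusted p = 0.202), against 0.0769% of all genes higher and 0.0615% lower. DESeq2 called 2, *Ndufs8* (0.60, adjusted p = 0.0402) and *Ndufa9* (5.49, adjusted p = 0.0434), and of all genes 0.985% higher and 1.65% lower. The fitted log2 differences were above 0 for 36 members and below for *Ndufa4l2*, with a median of 0.30. Without the WT infarct zone this median was 0.15, and without the TKO infarct zone also 0.15. Cardiomyocyte markers had a median of 0.36 in the same edgeR fit, fibroblast markers -0.40, and leukocyte markers -0.46, with 1 of 7 called lower (*Ptprc*, -0.67, adjusted p = 0.0431).

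Within regions the TKO/WT ratio differed in size. In the left ventricle it was above 1 for 37 of 37 members (51.5% of all genes), with a median of 1.17. In the infarct zone it was above 1 for 36 of 37 (50.8% of all genes), with a median of 1.65, and 30 of 37 were at least 1.5-fold higher (10.2% of all genes). In the border zone 36 of 37 were above 1 (49.7% of all genes; median 1.21) and in the remote zone 14 of 37 (48.0%; median 0.977). The members' excess in TKO was therefore widest in the infarct zone and not seen for most members in the remote zone. Cardiomyocyte markers had median ratios of 1.13, 1.95, 1.23, and 1.08 in the same 4 regions. Members relative to these medians came to 1.04, 0.849, 0.990, and 0.906. In the infarct zone the 8 markers ran from 1.64 (*Tnnt2*) to 3.41 (*Myh6*), beside the members' median of 1.65. Fibroblast markers had medians of 1.19, 0.810, 0.568, and 0.690, and leukocyte markers 0.803, 0.752, 0.673, and 0.657. The core subunits relative to markers came to 1.05, 0.975, 1.02, and 1.02. The part of cell makeup in the members' ratios was not tested. Each ratio compares 2 libraries and has no replicate check.

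**Figure D3:**
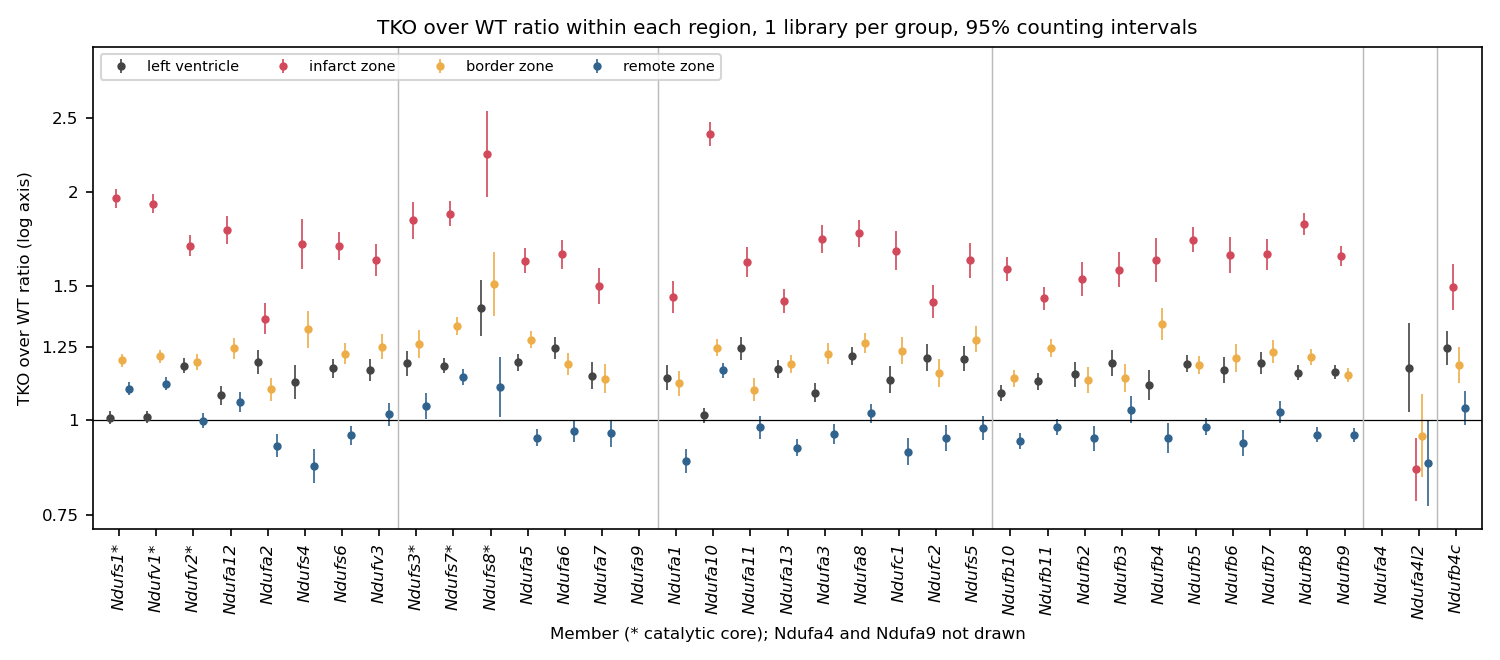
TKO/WT ratio (log axis) of the members shown in each region, with 95% exact intervals that cover counting error only; grey lines part the places in the enzyme. Infarct zone points (red) lie above the other regions for all members drawn but *Ndufa4l2*, and remote zone points (blue) scatter about 1.

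In the infarct zone the core subunits had higher TKO/WT ratios than most accessory ones. The 7 core ratios ran from 1.70 (*Ndufv2*) to 2.24 (*Ndufs8*), with a median of 1.90, and the 27 accessory subunits other than *Ndufa9* from 1.36 (*Ndufa2*) to 2.38 (*Ndufa10*), with a median of 1.63. The ranges overlapped. *Ndufa10* had 575, 105, 370, and 436 TMM-scaled CPM in the WT left ventricle, infarct, border, and remote zones and 583, 251, 461, and 507 in TKO. Its ratio was 1.02 in the left ventricle (0.992 to 1.04), not distinguishable from 1 at this depth, and 2.38 in the infarct zone (2.30 to 2.47). At the other end, *Ndufa2* of the NADH-oxidising module had 203, 80.5, 188, and 215 in WT and 242, 110, 207, and 199 in TKO. Its ratio was 1.19 in the left ventricle (1.15 to 1.24) and 1.36 in the infarct zone (1.3 to 1.43), values closer together than those of *Ndufa10*. *Ndufs8* was higher in TKO in every region, by 1.41-fold (left ventricle), 2.24-fold (infarct), 1.51-fold (border), and 1.11-fold (remote). *Ndufa4l2* was the member tested with a ratio below 1 in the infarct zone, 0.861 (0.783 to 0.947).

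Accessory subunits filled in this range by place. In the NADH-oxidising module *Ndufs4*, whose loss in mice gives a Leigh-like brain disease, had 102, 27.5, 73.1, and 109 TMM-scaled CPM in the WT left ventricle, infarct, border, and remote zones and 114, 46.9, 96.2, and 94.8 in TKO. The TKO/WT ratio of *Ndufs4* was 1.71 in the infarct zone and, at 0.870 (0.827 to 0.915), the lowest of the 37 in the remote zone. *Ndufa12* (1.78), *Ndufs6* (1.70), and *Ndufv3* (1.63) lay on the same side in the infarct zone. In the ubiquinone-binding module the ratios were 1.65 for *Ndufa6*, a protein of the LYR family, 1.62 for *Ndufa5*, and 1.5 for *Ndufa7*.

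In the membrane arm the infarct zone ratios of the proximal part other than *Ndufa10* ran from 1.43 for *Ndufc2* and 1.44 for *Ndufa13* (GRIM-19) to 1.76 for *Ndufa8*, with *Ndufa1*, *Ndufa11*, *Ndufs5*, *Ndufc1*, and *Ndufa3* between. Those of the distal part ran from 1.45 for *Ndufb11* to 1.81 for *Ndufb8*, whose protein is often blotted as a sign of the assembled complex. *Ndufb8* had 536, 134, 401, and 507 TMM-scaled CPM in the WT libraries, in the order above, and 619, 243, 485, and 485 in TKO. Its remote zone ratio was 0.957 (0.936 to 0.979, counting error only).

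In the remote zone core and accessory ratios overlapped. Of the core ratios 6 of 7 were above 1, up to 1.14 for *Ndufs7*, with *Ndufv2* at 0.999 (0.977 to 1.02). Of the 27 accessory subunits 6 were above 1, namely *Ndufa10* (1.16), *Ndufa12*, *Ndufb3*, *Ndufb7*, *Ndufa8*, and *Ndufv3*. The difference between core and accessory subunits was not tested.

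A fit of how far the infarct zone genotype difference departed from that of the other regions gave 0 of 37 members past the test by edgeR (25 at an unadjusted p under 0.05, against 7.83% of all genes; smallest adjusted p = 0.41), against 0% of all genes higher and 0.00769% lower. The median departure of the members was 0.59 on the log2 scale, and that of all genes 0.052. DESeq2 called 4 members higher, among them *Ndufa10*, *Ndufs1*, and *Ndufv1*, and of all genes 1.12% higher and 0.0692% lower. The departure rests on 1 TKO and 1 WT library of the infarct zone.

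As a percentage of total library counts, without TMM factors, the members summed to 1.03% in the WT left ventricle. The WT infarct, border, and remote zone libraries had 0.507%, 0.850%, and 0.974%. The TKO libraries had 1.17%, 0.707%, 0.962%, and 0.975%, in the order left ventricle, infarct, border, and remote zone. Because scaling cancels within the set, the share of each member in the summed counts of all members was also followed. The core subunits held 33.1%, 28.6%, 30.9%, and 29.9% of the member counts in WT and 31.9%, 31.4%, 31.5%, and 32.5% in TKO. The WT infarct zone thus had the lowest core share and the WT left ventricle the highest, while the 4 TKO libraries stayed within a narrower range. Each share rests on 1 library, and the WT remote zone (29.9%) lay nearer to the WT infarct zone than to the WT left ventricle. *Ndufv1* went from 7.06% to 5.39% of member counts between left ventricle and infarct zone in WT and from 6.30% to 6.08% in TKO, and *Ndufa10* from 4.83% to 3.20% in WT and from 4.33% to 4.46% in TKO. Of the members whose share moved the same way in both genotypes, *Ndufa4l2* moved most, from 0.128% to 0.747% in WT and from 0.132% to 0.376% in TKO. It was followed by *Ndufa9* and *Ndufa4*, whose shares rest on few counts.

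**Figure D4:**
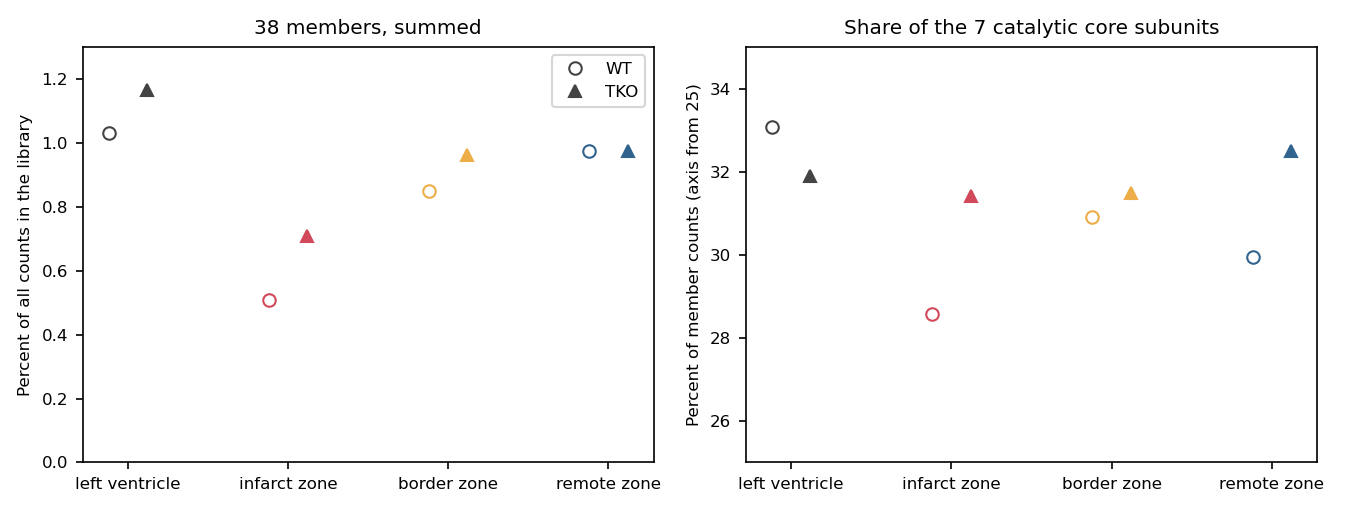
Left, the 38 members' summed counts as a percentage of each library; right, the share of the 7 core subunits in the member counts (axis from 25%), by region, with open circles for WT and filled triangles for TKO. The member sum is lowest in the infarct zones (0.507% and 0.707%), and the core share is lowest in the WT infarct zone (28.6%).

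*Ndufa9*, an accessory subunit at the hinge between the arms, was listed at low counts that stood apart between genotypes. Its transcript is known as abundant in heart, and whether the transcript index of the authors held its main transcript is not given in the sources used here, so these counts may not stand for the level of the gene. It was listed at 36, 0, 0, and 97 estimated counts in the WT left ventricle, infarct, border, and remote zones and at 458, 95, 66, and 159 in TKO. Counts were higher in TKO in 4 of 4 regions, although the WT remote zone exceeded the TKO infarct and border zones. The ratio was 13.5 in the left ventricle (9.58 to 19.5) and 1.66 in the remote zone (1.28 to 2.16). In the infarct and border zones TKO was at least 37.5-fold and at least 22.9-fold higher, taking 3 counts as the floor per library. Across regions the log2 difference was 3.35 ± 0.95 (SE; edgeR adjusted p = 0.214). Its level per kilobase ranked 37th of the 38, and 4.62% of its 31-base words occur in other genes. *Ndufa9* (chr6:126821721-126849136 of GRCm38, minus strand) and *Tigar* (chr6:127085116-127109557, minus strand) lie 236 kb apart, and the part of this closeness to the altered locus in the counts was not tested.

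*Ndufa4* had 9, 9, 5, and 5 estimated counts in WT and 0, 5, 0, and 11 in TKO. Both genotypes were near the floor of 3 counts, which is 0.0709 to 0.116 TMM-scaled CPM depending on the library. The infarct zone ratio was 0.657, with an interval (0.173 to 2.18) that spans 1, and no difference was detectable in these counts. *Ndufa4* too is known as abundant in heart, and the same limit on the transcript index holds for it. Of its 31-base words, 2.21% occur in other genes.

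In the infarct zone, genes that serve the same enzyme moved with the members. Of 16 assembly factors measured, 16 were lower in the infarct zone than in the left ventricle (median log2 difference -0.99), less deep than the members' -1.49, a difference between lists that was not tested. *Ecsit*, of the intermediate assembly complex, fell by 1.5 on the log2 scale (SE 0.20) and *Tmem126b* of the same complex by 0.69 (SE 0.10). For the TKO/WT ratio in infarct tissue, all 16 were above 1 (median 1.46), with *Ecsit* highest (1.81) and *Dmac1* lowest (1.09). *Ndufab1*, the acyl carrier subunit, fell by 1.59 (SE 0.21) and had a ratio of 1.77. The 7 complex I subunits of mitochondrial DNA (*ND1* to *ND6* and *ND4L*) were all lower too (median -1.32) and their infarct zone TKO/WT ratios had a median of 1.67. Elsewhere they moved less with the members. In the left ventricle 3 of 7 had a TKO/WT ratio above 1 (median 0.955), beside 37 of 37 members (median 1.17). In WT the median border zone over left ventricle ratio was 0.931 for these subunits and 0.767 for the members. The summed counts of the 7 subunits were 12.1, 13.1, 14.8, and 13.4 times those of the nuclear members in the WT left ventricle, infarct, border, and remote zones and 9.88, 12.9, 13.4, and 13.2 times in TKO. The TKO left ventricle had the lowest of these ratios, and the 2 infarct zones were nearly equal.

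Other respiratory complexes gave the background to these falls. In the infarct zone against the left ventricle, 4 of 4 subunits of complex II, 9 of 9 of complex III, 12 of 12 of complex IV, and 14 of 14 of complex V were lower, with medians of -1.54, -1.54, -1.52, and -1.50 on the log2 scale. The members' median of -1.49 lay beside these values. Infarct zone TKO/WT ratios had medians of 1.79, 1.67, 1.645, and 1.69 for complexes II to V, beside the members' 1.65. Remote zone medians were 1.04, 0.990, 0.919, and 0.985, beside 0.977. Median departures of the infarct zone genotype difference by edgeR were 0.69, 0.61, 0.59, and 0.59, beside 0.59. The genotype pattern was thus not particular to complex I.

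Transcript length was set beside the genotype ratios, since the core transcripts are longer (983 to 2661 bases, median 1623) than those of the 27 accessory members (median 704). Across 34 members, the log2 TKO/WT ratio had Pearson's r = 0.35 and Spearman's rho = 0.36 with length in the infarct zone and r = -0.31 and rho = -0.28 in the left ventricle. These describe genes of the same libraries, which are not independent. Over all genes tested, the median log2 ratio in the left ventricle went from 0.15 for transcripts up to 1000 bases to -0.092 for those over 4000, and in the infarct zone from 0.062 to -0.024. Remote zones ran the other way, from -0.088 to 0.031. Abundant genes, averaging 100 CPM or more, had higher infarct zone medians, of 0.30, 0.38, 0.32, and 0.28 from the shortest to the longest class. The members in these classes had 0.70, 0.78, 1.11, and 0.62, so they stood out less from abundant genes than from all genes. The 7 accessory members at least as long as the shortest core transcript had a median infarct zone ratio of 1.67, the 20 shorter ones 1.62, and the core 1.90. In the remote zone the 3 medians were 0.947, 0.958, and 1.11.

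**Figure D5:**
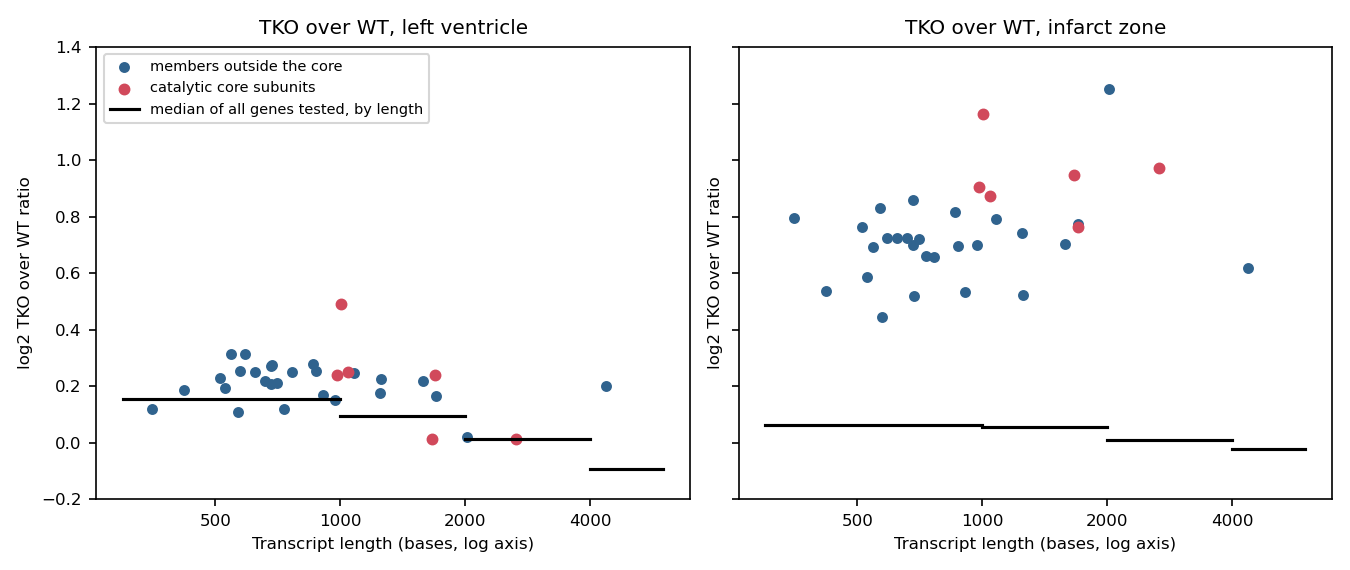
log2 TKO/WT ratio against transcript length (bases, log axis) for members other than *Ndufa4*, *Ndufa4l2*, *Ndufa9*, and *Ndufb4c* in the left ventricle and the infarct zone, with black lines for the median of all genes tested in each length class. Every member drawn lies above 0 in both panels, and the infarct zone members lie well above the line for all genes of their length. The lines are not limited to abundant genes (averaging 100 CPM or more), whose infarct zone medians were higher, 0.28 to 0.38.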

How the data were processed

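RNA-seq of 8 heart libraries, 1 per genotype and region, was analysed from the gene table. The authors trimmed reads with Trim Galore (v0.6.5), quantified transcripts with Kallisto (v0.46) on mm10, and summed them with tximport. The table deposited by the authors holds estimated counts as whole numbers, without normalization. Total counts were 27429240 to 33799249 per library. Genes were annotated with GENCODE M21 (GRCm38).

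Tests used edgeR 4.0.16 (R 4.3.3) with TMM, quasi-likelihood F tests, and Benjamini-Hochberg adjustment over the 12999 genes averaging 1 CPM or more. The model held region and genotype, and the departure model added the genotype effect of the infarct zone. With 1 library per group, regions or genotypes stand in for replicates. DESeq2 1.42.0, other scalings, filters, and libraries left out were alternatives. Ratios between 2 libraries were TMM-scaled, with 95% exact (Clopper-Pearson) intervals that cover counting error only. Counts under a floor of 3 were set to 3 for bounds and medians. Medians of lists are of these ratios. Shared 31-base words were counted over GENCODE transcripts. Scripts were tested on simulated data. Python 3.11.15, pandas 2.3.3, scipy 1.17.1, and matplotlib 3.10.9 were used.

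The members and lists, the motifs, and the tests were chosen with earlier results of these data known. All members but 1, which is not reported here by itself and is not drawn, are named, and it stays in the counts and medians of lists. Values in all libraries are given for the core subunits, *Ndufa4*, *Ndufa4l2*, the 3 highest and 3 lowest members by TKO/WT ratio in the infarct zone, and the 3 whose share of member counts changed most. Assembly factors were to be named where they passed the test or were the 2 highest or 2 lowest; since all 16 passed, examples are given. *Ndufb1* and *Coa1* were not analysed here.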

Additional observations from a re-analysis of the deposited data

Results flagged for a closer look

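The genotype difference of 3 members in the infarct zone departed from that of the other regions by DESeq2, by 1.07 on the log2 scale for *Ndufa10* (adjusted p = 0.0022), 0.835 for *Ndufs1* (0.018), and 0.798 for *Ndufv1* (0.0267). The edgeR test passed none of them, with an adjusted p of 0.41 for each, and cardiomyocyte markers had a median departure of 0.82 in the edgeR fit. The median TKO/WT ratio of the members was 0.977 in the remote zone and above 1 in the other 3 regions. That difference between regions was not tested, and each value rests on 2 libraries.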

How the results depend on the processing

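Scaling changed the ratios between libraries more than any other choice. With total counts only, the median TKO/WT ratio of the members was 1.35 in the infarct zone (1.65 with TMM) and 1.13 in the border zone (1.21), and the infarct zone over left ventricle ratio 0.528 in WT (0.297) and 0.617 in TKO (0.425). A further scaling used the median ratio of the 8 cardiomyocyte marker genes. The TKO/WT medians became 1.04 in the left ventricle, 0.849 for infarct, 0.99 for border, and 0.906 for remote zones. The infarct zone median thus passed below 1, and the border zone median came to about 1. The infarct zone over left ventricle medians became 1.26 in WT, above 1 and not below it, and 0.928 in TKO. These values depend on the markers, whose own infarct zone TKO/WT ratios ran from 1.64 to 3.41. The DESeq2 Wald test called 2 members across genotypes and 4 for the departure of the infarct zone, where edgeR called 0 of each. The cause of that difference was not tested.

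With each library left out in turn, the count of members lower in the infarct zone ran from 35 to 36 and their median log2 difference from -1.78 to -1.24. The counts across genotypes and for the border and remote zones against the left ventricle stayed at 0 to 0. The model held region as a term, so genotypes were compared within regions throughout, and the labels give no replicate numbers for another pairing. The median across genotypes ran from 0.15 to 0.41 and that of the remote zone against the left ventricle from -0.41 to 0.04. Alternative sets left out *Ndufa4* and *Ndufa4l2*, or also *Ndufa9* and *Ndufb4c* (chosen after seeing the data). Every median ratio then stayed between the medians of the single members' lower and upper counting bounds. With these 4 left out the core share was 29.1% in the WT infarct zone and 33.4% in the WT left ventricle. It must rise when members outside the core leave the sum. At least 100 counts in every library stood behind 36 of 38 members, and the exceptions were *Ndufa4* and *Ndufa9*, whose low counts may not reflect depth.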
